A study of Mus musculus with 4 samples.

Results

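The mouse stefin A genes Stfa1, Stfa2, Stfa3, Stfa2l1, BC100530, Gm5483 and Gm5416 were described in neutrophils that had entered brain tumours. The set was chosen by symbol, as stefin A genes whose UMIs lay mostly in neutrophils in an earlier look at these libraries, and all 7 were found among the 31053 genes of the files. Their concentration in neutrophils is therefore how they were chosen and not a result. The cells were tumour-infiltrating immune cells of C57BL/6 mice at the symptomatic stage of a genetically engineered glioma model. They came from tumours with mutant IDH1 (mIDH1, 2 libraries) or wild-type IDH1 (wtIDH1, 2 libraries). The driver genes that the 2 tumour models share, the sorting of the cells, and whether a library is 1 animal or a pool were not given in the sources used here. IDH1, isocitrate dehydrogenase, produces an oncometabolite when mutated, and the study's title names secretion of the neutrophil growth factor G-CSF by mIDH1 glioma stem cells as its subject.

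Stefins are small cystatins without a secretion signal that sit in the cytosol and block papain-like cysteine proteases such as the cathepsins. Humans carry a single stefin A gene, CSTA, whereas the mouse locus has expanded into a cluster of near copies. Mouse neutrophils and their bone marrow precursors are a known site of stefin A expression, and stefin A genes are often listed among the markers of neutrophil subsets in mouse tumours.

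Per the GENCODE M21 annotation of mm10 the 7 genes span chr16:36156811-36455392, or 299 kb. Stfa2l1 (chr16:36156811-36161953), Gm5483 (chr16:36184212-36188111), Gm5416 (chr16:36210403-36217788) and Stfa1 (chr16:36276951-36285373) lie on the plus strand. BC100530 (chr16:36359382-36367748), Stfa2 (chr16:36403992-36408457) and Stfa3 (chr16:36450537-36455392) lie on the minus strand. The genes 2010005H15Rik and BC117090 lie between them, and Csta1 lies beside Stfa2l1. The longest transcripts of the 7 genes were 74.8% (Stfa2 and Stfa3) to 97.1% (Stfa1 and BC100530) identical over the 21 pairs. Windows of 91 bases, taken here as a read length since the study's is not given in the sources used here, were used to see which genes could share reads. In the last 500 bases of the transcript, 21.0% of such windows of BC100530 were found unchanged in Stfa1 or BC117090, and 9.27% of those of Stfa1 in BC100530. The share was 1.84% for Stfa2 and 2.13% for Stfa2l1, which share windows with each other, and 0 for Stfa3, Gm5483 and Gm5416. The split of UMIs between Stfa1 and BC100530 is for that reason the least certain.

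The copies also resemble each other upstream of their starts. The 250 bases before the RefSeq start sites were 66.4 to 90.8% identical between pairs, highest for Stfa2 and Stfa2l1. The run TTTAAAA, which resembles a TATA box and was read off these promoters, stood in all 7 and in 8.10% of all 32851 mouse promoter windows of that length (both strands). It began 29 to 33 bases before the start in Stfa1, Stfa2, Stfa3, Stfa2l1 and Gm5483, but 9 bases before it in BC100530 and 77 in Gm5416. The run GAGGAGGAG, chosen the same way, stood in 6 of 7, all but Gm5416, and in 2.75% of all windows. The 4 stretches that overlap no annotated exon are shown to let the shared layout be seen, each 107 bases long and aligned on TTTAAAA in capitals (RefSeq, GRCm38.p6, 5′ to 3′ on the gene's own strand). Gm5483 is chr16:36184103-36184209 and Stfa2l1 chr16:36156698-36156804 (plus strand). Gm5416 is chr16:36210246-36210352 (plus strand) and Stfa3 chr16:36455397-36455503 (minus strand).
Gm5483: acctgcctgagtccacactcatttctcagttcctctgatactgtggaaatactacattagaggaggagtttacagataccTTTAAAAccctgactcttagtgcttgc
Stfa2l1: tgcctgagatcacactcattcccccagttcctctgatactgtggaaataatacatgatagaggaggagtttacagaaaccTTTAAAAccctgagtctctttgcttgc
Gm5416: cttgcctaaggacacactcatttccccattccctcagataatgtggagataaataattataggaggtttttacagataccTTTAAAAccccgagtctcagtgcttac
Stfa3: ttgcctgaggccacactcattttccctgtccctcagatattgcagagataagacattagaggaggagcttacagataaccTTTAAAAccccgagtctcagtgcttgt
A search for GAGGAAG (a PU.1 core) found it in 3 of the 7 windows, TTGCNNAA (C/EBP-like) in 3 and AGATAA (a site type of the GATA factors) in 4. These motifs were found in 10.6%, 9.56% and 9.99% of all windows on either strand.

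Of 16289 barcodes 13197 cells were kept, 2980 to 3653 per library, and the libraries held 20908476 to 29849183 UMIs. Cells were assigned to classes by the summed level of fixed marker genes, none of which is a stefin. Neutrophils numbered 992 and 1744 in the mIDH1 libraries and 106 and 174 in the wtIDH1 libraries, with median depths of 2030 and 2223 UMIs in mIDH1 and 1882 and 1564 UMIs in wtIDH1. Check genes outside the gate were present in all 4 neutrophil sums. The highest, Mxd1, was at 1510 and 1904 CPM in mIDH1 and 1749 and 1229 CPM in wtIDH1. Padi4, at the low end, was at 14.8 and 15.9 CPM in mIDH1 and 13.2 and 26.5 CPM in wtIDH1. In macrophages Padi4 was at 10.2 and 9.29 CPM in mIDH1 and 1.69 and 1.03 CPM in wtIDH1. Neutrophils were split into granule-rich (62 and 238 mIDH1 cells, 12 and 7 wtIDH1 cells), mature (296 and 566 against 46 and 112) and activated cells (634 and 940 against 48 and 55). The first were drawn by a score of genes such as Ngp, Camp and Ltf. The others were split by scores of genes such as Mmp9 and Cxcr2 for mature cells and Hcar2, F3 and Cxcl2 for activated cells. Granule-rich cells had a median granule score of 0.258 and a median mature score of 0.537, against 0.0767 and 0.501 in mature cells. The granule-rich state thus overlaps the mature state in mature markers. These states are ranges of a score, and 417 cells lay within 0.05 of the granule limit and 268 within 0.05 between mature and activated. Libraries shared 6 to 25 barcodes with each other, and the labelled IDH1 genotype was not checked from the reads.

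Gm5483 and Stfa2l1 carried most stefin A UMIs in neutrophils of every library. Together they made up 85.8% and 95.5% of the UMIs of the 7 genes in mIDH1 neutrophils and 95.5% and 98.9% in wtIDH1 neutrophils. Gm5483, a predicted stefin A copy that RefSeq now names Cstdc4, was at 2779 and 3383 CPM (the usual counts-per-million scale, over all UMIs of the class in that library) in mIDH1 and at 828 and 1441 CPM in wtIDH1. Stfa2l1, named for its likeness to Stfa2, was at 978 and 1495 CPM in mIDH1 and at 375 and 421 CPM in wtIDH1. By CPM both mIDH1 libraries lay above both wtIDH1 libraries for each of the 2 genes. Per UMI of S100a8, a gate marker, Gm5483 was at 0.112 and 0.0636 in mIDH1 and 0.0485 and 0.0836 in wtIDH1 neutrophils. The genotypes thus overlapped for Gm5483 on that scale. Stfa2l1 per S100a8 UMI was at 0.0394 and 0.0281 in mIDH1 and 0.0219 and 0.0244 in wtIDH1 and did not overlap. Per UMI of S100a9, another gate marker, Stfa2l1 was lower in mIDH1 replicate 2 than in wtIDH1 replicate 2. The counts were 6483 Stfa2l1 to 279186 S100a9 UMIs and 127 to 5303 UMIs. On that scale the genotypes overlapped for Stfa2l1 as well. UMIs were not divided by transcript length, so that these levels order genes by captured molecules only.

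The other 5 genes were 10 or more times lower than Gm5483 in every library. Stfa1 was at 256 and 89.3 CPM in mIDH1 and at 4.41 and 3.31 CPM in wtIDH1, where each library held 1 Stfa1 UMI in its neutrophils. BC100530, which RefSeq names Cstdc5, was at 199.7 and 39.7 CPM in mIDH1 and at 13.2 and 9.94 CPM in wtIDH1. Stfa2 was at 102 and 56.7 CPM in mIDH1 and at 35.3 and 6.63 CPM in wtIDH1. Gm5416, which RefSeq names Csta3, was at 38.1 and 29.5 CPM in mIDH1 and had no UMI in wtIDH1, where 3 UMIs over both libraries would be 5.67 CPM. Stfa3 was at 24.2 and 12.2 CPM in mIDH1 and at 4.41 and 0 CPM in wtIDH1. By CPM the libraries of the genotypes did not overlap for these 5 genes either. The wtIDH1 sums hold only 0 to 8 UMIs of each per library. The share of all genes whose libraries do not overlap was not counted, so non-overlap is not read as particular to these genes.

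**Figure D1:**
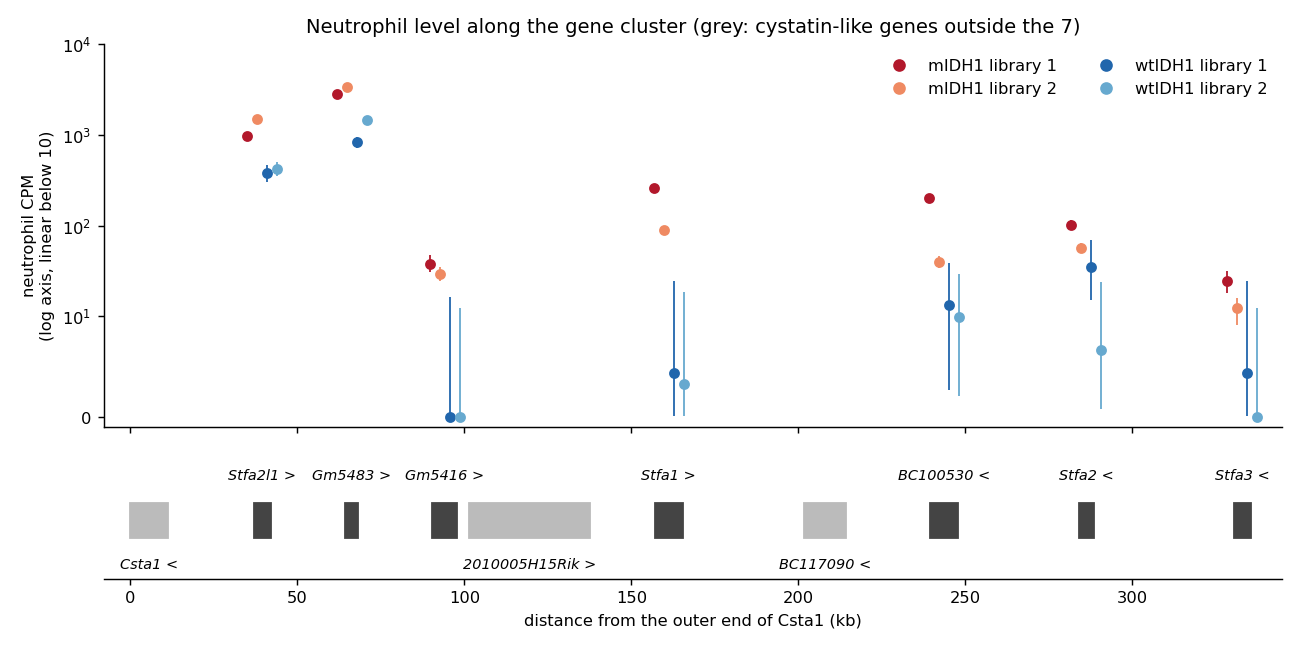
Neutrophil level of the 7 genes (CPM, log axis that is linear below 10, points: libraries, bars: exact Poisson 95% intervals) above a map of the gene cluster (distance in kb, arrows: strand). Gm5483 at 2779 and 3383 CPM in mIDH1 and 828 and 1441 CPM in wtIDH1 stands highest, beside Stfa2l1, and the genes farther along are lower.

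UMIs were summed per library over all neutrophils, and mIDH1 was set against wtIDH1 for every gene with edgeR's quasi-likelihood test and Benjamini-Hochberg adjustment over 7240 genes. The question is whether the stefin A level per neutrophil UMI differed with the tumour's IDH1 genotype. Of all tested genes 1.09% were called, 0.622% higher and 0.47% lower in mIDH1, and 6 of the 7 stefin A genes were called higher. The median log2 fold change of the 7 was 3.57, which is that of Stfa3 on 1 wtIDH1 UMI, against −0.0029 over all genes tested. All 7 were tested, but genes at or near 0 in wtIDH1 could pass the filter on low counts only through mIDH1. The rise of Stfa1 and Stfa2l1 was known when the set was listed, so the count of calls and the median are a description.

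Stfa1 rose by a log2 fold change of 5.81 (SE 0.66, adjusted p = 0.000584, edgeR). Each SE given was taken as the size of the log2 fold change divided by the square root of the test's F statistic. On the 2 wtIDH1 UMIs the plain ratio of pooled CPM was 38.6, with a counting interval of 10.7 to 319. Stfa2l1 rose by 2.15 on the log2 scale (SE 0.40, adjusted p = 0.0251) and Gm5483 by 1.93 (SE 0.42, adjusted p = 0.0390). BC100530 rose by 3.66 (SE 0.71, adjusted p = 0.0293) and Stfa2 by 2.43 (SE 0.51, adjusted p = 0.0382). Gm5416 passed as well (adjusted p = 0.0114), and its pooled mIDH1 level was at least 5.72-fold higher than 3 UMIs over the wtIDH1 group. Stfa3 had a log2 fold change of 3.57 (SE 0.99) and did not pass (adjusted p = 0.0786). The ratio of its pooled CPM was 8.61 (counting interval 1.51 to 343).

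These log2 fold changes follow edgeR's normalization. With library totals as the only scaling, the median gene was at −0.43, and Gm5483 was at 1.43 and Stfa2l1 at 1.63. An exact permutation test of 2 libraries against 2 cannot give a p under 0.333, so the calls rest on edgeR's variance model and measure the spread between these libraries, which may be technical. Stfa1 passed in all 14 alternative fits, including each fit without 1 library, at log2 fold changes of 4.89 to 6.22. With 1 UMI in each wtIDH1 neutrophil sum, it could pass the filter on low counts only through mIDH1. Its rise was known beforehand and the fits reuse the same libraries, so they are a description and not independent support. Without wtIDH1 replicate 2 only Stfa1 of the 6 passed, with BC100530 at a log2 fold change of 3.46 (adjusted p = 0.204), Stfa2l1 at 2.26 (0.283), Stfa2 at 1.57 (0.321), Gm5483 at 2.40 (0.363) and Gm5416 at adjusted p = 0.0868. Without wtIDH1 replicate 1, Stfa2l1 was at 2.11 (adjusted p = 0.196) and Gm5483 at 1.62 (adjusted p = 0.442) and neither passed, while Stfa2 was at 3.99 (adjusted p = 0.00708). Without mIDH1 replicate 1 BC100530 was at 2.44 (adjusted p = 0.00148). Markers of other cells varied between the neutrophil sums. The 10 macrophage markers summed to 3368 and 1137 CPM in mIDH1 neutrophil sums and 2283 and 3426 CPM in wtIDH1 sums, with Mrc1 at 0 in 1 wtIDH1 library. The 12 neutrophil gate markers, each with UMIs in all 4 sums, came to 62339 and 134015 CPM in mIDH1 and 47804 and 48406 CPM in wtIDH1. The part of either in the stefin A difference was not tested.

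Each neutrophil was next thinned to 1000 UMIs, so that the share of cells with a stefin A UMI could be compared at equal depth. Any of the 7 genes was read in 53.0% of 928 and 55.2% of 1658 mIDH1 neutrophils, and in 28.7% of 101 and 27.9% of 154 wtIDH1 neutrophils. Exact binomial 95% intervals were 49.7 to 56.3 and 52.8 to 57.6 in mIDH1, and 20.1 to 38.6 and 21.0 to 35.7 in wtIDH1, and cover counting error only. Cells under 1000 UMIs were left out (64 and 86 mIDH1 cells, 5 and 20 wtIDH1 cells). At full depth the shares were 59.9% and 61.9% in mIDH1 and 35.8% and 35.1% in wtIDH1. The mIDH1 libraries lay above the wtIDH1 libraries either way.

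By gene, Gm5483 was read in 43.5% and 41.1% of thinned mIDH1 neutrophils and in 24.8% and 20.1% of wtIDH1 neutrophils. Stfa2l1 was read in 33.5% and 40.5% of mIDH1 and in 15.8% and 16.2% of wtIDH1 neutrophils. For Gm5483 and Stfa2l1 the mIDH1 libraries thus lay above the wtIDH1 libraries by share as well as by CPM. How many of all genes do so was not counted, so this is not read as particular to them. Stfa1 was read in 4.2% and 2.77% of mIDH1 and in 0.990% and 0.649% of wtIDH1 cells, Gm5416 in 2.80% and 2.53% of mIDH1 cells and none in wtIDH1. BC100530, Stfa2 and Stfa3 were read in 0.647 to 2.59% of mIDH1 cells and 0 to 1.98% of wtIDH1 cells. By the limit of 3 cells in the total, a count of 0 among 101 or 154 wtIDH1 cells allows a share of up to 2.97% or 1.95%.

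A cell without Gm5483 was common even where the gene was high. At full depth 49.1% and 47.1% of mIDH1 neutrophils held it, and these held a median of 7 and 9 UMIs. In wtIDH1, 30.2% and 25.9% held it, with medians of 3.5 and 5 UMIs. The 192 and 393 mIDH1 cells with 10 or more Gm5483 UMIs carried 82.0% and 89.6% of its UMIs, and 7 and 9 such wtIDH1 cells carried 59.6% and 63.7%. In wtIDH1 replicate 2 a single cell with 140 Gm5483 UMIs held 32.2% of them. Stfa2l1 had medians of 3 and 5 UMIs in positive mIDH1 cells and of 3 and 2 UMIs in positive wtIDH1 cells.

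The less abundant genes lay in few cells. A granule-rich cell of mIDH1 replicate 1 with 24948 UMIs and 3133 UMIs of S100a8 held 258 UMIs of Stfa1, 323 of BC100530, 113 of Stfa2, 34 of Stfa3, 165 of Stfa2l1, 68 of Gm5483 and 1 of Gm5416. Stefin A UMIs were 3.86% of all UMIs of that cell. It alone carried 45.1% of the library's neutrophil UMIs of Stfa1, 72.4% of BC100530, 49.6% of Stfa2 and 63.0% of Stfa3. In mIDH1 replicate 2 the highest cell carried 9.04% of Stfa1, 17.4% of BC100530, 8.13% of Stfa2 and 11.3% of Stfa3 UMIs. Gm5416 had 9.41% and 7.81% of its UMIs in its highest mIDH1 cells, so that it did not share the concentration of replicate 1.

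The genotype fit was repeated without the neutrophil of most stefin A UMIs in each library, an alternative chosen after the data were seen. Stfa1 (log2 fold change 5.28, SE 0.54, adjusted p = 0.00222), Gm5483 (2.32, SE 0.40, adjusted p = 0.0315) and Gm5416 (adjusted p = 0.0287) passed. Stfa2l1 (2.14, adjusted p = 0.0555), BC100530 (2.45, adjusted p = 0.0555), Stfa2 (2.06, adjusted p = 0.121) and Stfa3 (2.86, adjusted p = 0.212) did not. All 7 stayed higher in mIDH1, and the number of genes called over the whole table was 32, against 79 with those cells.

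**Figure D2:**
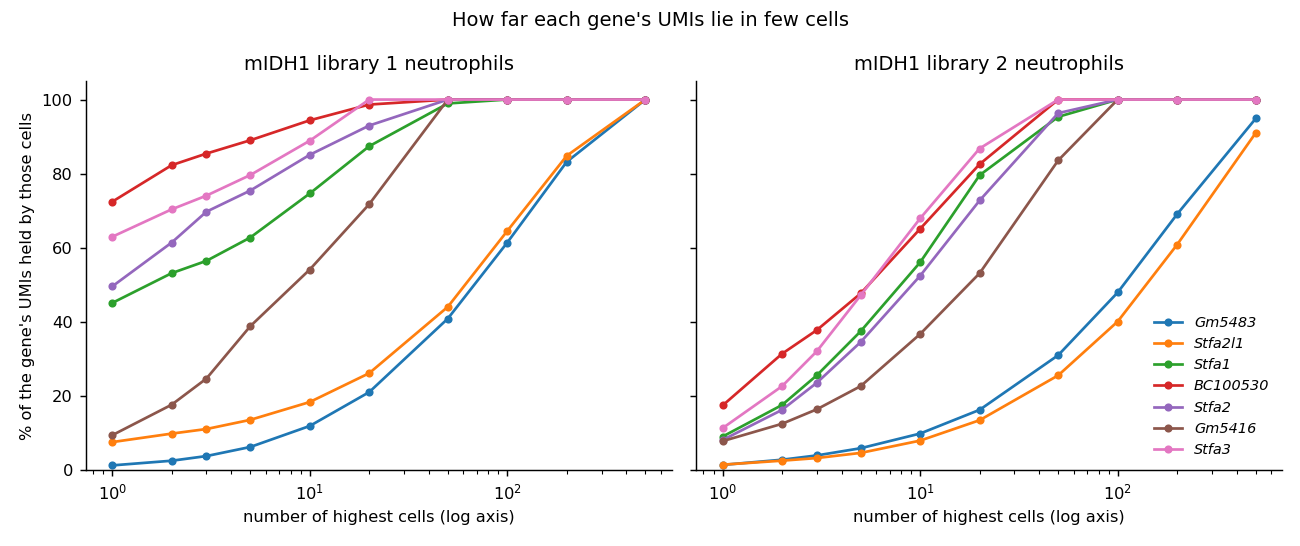
Share of a gene's neutrophil UMIs (percent) held by its highest cells (number of cells, log axis) in mIDH1 replicate 1 and mIDH1 replicate 2, 1 line per gene. In replicate 1 the lines of BC100530, Stfa3, Stfa2 and Stfa1 start at 72.4, 63.0, 49.6 and 45.1%, which is 1 cell, while Gm5483 starts at 1.27%.

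There were 25 neutrophils with 10 or more Stfa1 UMIs, 11 in mIDH1 replicate 1 (1.11%) and 14 in mIDH1 replicate 2 (0.803%). None was seen among 106 and 174 wtIDH1 neutrophils, which by the same limit of 3 cells allows shares of up to 2.83% and 1.72%, so a difference in this share was not detectable at this depth. These 25 cells carried 72.5% of all neutrophil Stfa1 UMIs. By state 9 were granule-rich, 8 mature and 8 activated, and their median depth was 2716 UMIs. Of the 25, 23 also held Stfa2l1 and 20 held Gm5483, but only 6 held Stfa2, 4 held BC100530 and 3 held Stfa3. Cells with 35, 33 and 31 Stfa1 UMIs in mIDH1 replicate 2 had no BC100530 UMI, although the 2 transcripts are the most alike of the cluster.

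Across states Gm5483 was higher in activated than in mature neutrophils of every library when cells were gated one by one. It was at 3216 and 4471 CPM in activated and 1821 and 2641 CPM in mature mIDH1 cells. In wtIDH1 it was at 1248 and 2064 CPM in activated and 533 and 1326 CPM in mature cells. With clusters made without the stefin A genes in place of the gate, the order held in mIDH1 replicate 1 (3038 CPM in activated and 2521 CPM in mature cells), in wtIDH1 replicate 1 (1746 and 289 CPM) and in wtIDH1 replicate 2 (3775 and 669.7 CPM). It did not hold in mIDH1 replicate 2 (4395 and 4510 CPM). No test was run on these orders, since the genes were listed with their state pattern in view.

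Stfa2l1 had no steady order between activated and mature cells, with activated to mature ratios of 1.03 and 0.803 in mIDH1 and 0.648 and 1.37 in wtIDH1. Stfa1 was lower in activated (64.4 and 92.2 CPM) than in mature mIDH1 cells (142 and 108 CPM) by gate, but higher by cluster (96.2 and 129 CPM against 29.2 and 17.8 CPM). Its order between these states therefore depends on how they are drawn. BC100530 was at 22.0 and 30.3 CPM in activated and 47.7 and 59.4 CPM in mature mIDH1 cells, and Gm5416 at 36.4 and 39.7 CPM in activated and 31.8 and 25.6 CPM in mature mIDH1 cells.

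Granule-rich neutrophils, which carry transcripts of granule proteins made earlier in maturation, differed more between the mIDH1 libraries in the summed level of the 7 genes than the other states did, though not in Stfa2l1. The 7 genes summed to 9788 and 3470 CPM in mIDH1 and to 343 and 410 CPM in wtIDH1. Of the 2152 UMIs behind the sum in mIDH1 replicate 1, 962 lay in the single cell described above. Stfa1 was at 1769 and 55.0 CPM, BC100530 at 1746 and 32.5 CPM and Stfa2 at 819 and 56.1 CPM in the mIDH1 libraries, the first of which holds the single cell described above. Stfa2l1 was at 2024 and 1395 CPM in mIDH1, against 103 and 154 CPM in wtIDH1, which rest on 3 UMIs each. Gm5483 was at 3170 and 1911 CPM in mIDH1, against 240 and 51.2 CPM in wtIDH1, on 7 and 1 UMIs. With 12 and 7 wtIDH1 cells no test was made in this state.

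**Figure D3:**
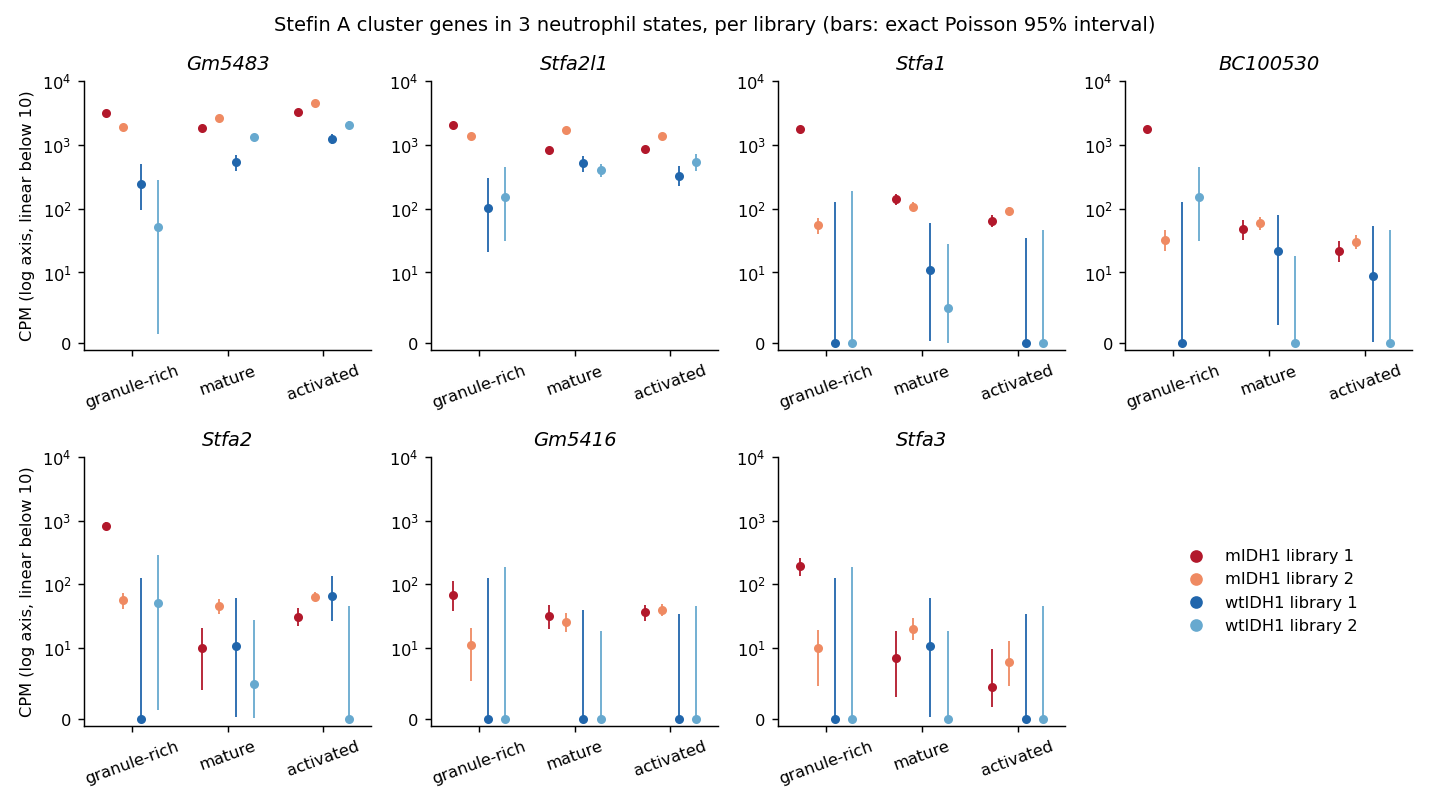
Level of each gene (CPM, log axis that is linear below 10) in granule-rich, mature and activated neutrophils, 1 point per library with mIDH1 left of wtIDH1 and exact Poisson 95% intervals. Gm5483 in activated cells stands at 3216 and 4471 CPM in mIDH1 and 1248 and 2064 CPM in wtIDH1, and the granule-rich wtIDH1 points rest on 12 and 7 cells.

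The genotype comparison was repeated within the 2 states that have at least 30 cells in every library. In mature neutrophils 0.103% of 4868 genes were called, 0.0822% higher and 0.0205% lower in mIDH1. Of the 5 stefin A genes tested there, Stfa1 was called (log2 fold change 4.42, SE 0.63, adjusted p = 0.0123), on 98 and 143 UMIs in mIDH1 and 1 and 1 UMI in wtIDH1. Stfa2l1 had a log2 fold change of 1.91 (SE 0.46, adjusted p = 0.0908) and Gm5483 of 1.60 (SE 0.47, adjusted p = 0.144), and neither passed. BC100530 (3.24, adjusted p = 0.133) and Gm5416 (adjusted p = 0.106) did not pass, and Stfa2 and Stfa3 had too few counts to test. Without wtIDH1 replicate 2 the adjusted p of Stfa1 was 0.158, and with clusters in place of the gate it was 0.0627. Of 13 alternative fits, 7 called Stfa2l1 (log2 fold change 1.06 to 2.63) and 6 called Gm5483 (1.1 to 3.11), among them DESeq2 (adjusted p = 0.0144 and 0.0382), clusters (0.0187 and 0.00877) and the fit without mIDH1 replicate 1 (3.88e-09 and 1.98e-07). Without the neutrophil of most stefin A UMIs in each library Gm5483 was at 2.26 (adjusted p = 0.0105).

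In activated neutrophils 0.625% of 5284 genes were called, 0.322% higher and 0.303% lower in mIDH1, and Stfa1, whose rise was known beforehand, was the 1 called of 6 stefin A genes tested (adjusted p = 0.0374). It had 85 and 195 UMIs in mIDH1 and no UMI in wtIDH1, and so could be tested only through mIDH1. Its pooled level was at least 5.07-fold higher than 3 UMIs over the wtIDH1 group. Its adjusted p was 0.0852 with doublets kept and 0.130 with clusters in place of the gate. Stfa2l1 was at 1.80 (SE 0.42, adjusted p = 0.0663), Gm5483 at 1.62 (SE 0.41, adjusted p = 0.0926) and Gm5416 at adjusted p = 0.103. Of 13 alternative fits, 8 called Stfa2l1 (log2 fold change 1.12 to 2.31) and 5 called Gm5483 (0.81 to 2.14). DESeq2 called both (adjusted p = 0.0201 and 0.0205), as did the fit without mIDH1 replicate 1 (7.99e-05 and 2.06e-05), and without wtIDH1 replicate 2 Stfa2l1 passed (0.0394). BC100530 (2.66, SE 1.15, adjusted p = 0.337) and Stfa2 (0.82, SE 0.79, adjusted p = 0.718) were farther from the threshold. Whether the genotype difference itself differed between the states was not tested.

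Co-expression was counted in neutrophils at 1000 UMIs, as the number of cells that hold both genes beside the product of the single shares. It is a description, because the cells of a library share their depth and their mix of states. Gm5483 and Stfa2l1 were read together in 234 cells of mIDH1 replicate 1 and 451 of mIDH1 replicate 2, where the product of shares gives 135 and 276. In wtIDH1 they were read together in 12 and 14 cells, where the product gives 3.96 and 5.03. Of the Stfa2l1 cells, 75.2% and 67.2% in mIDH1 and 75% and 56% in wtIDH1 also held Gm5483. The overlap was above the product within the granule-rich, mature and activated mIDH1 cells as well, by 1.45 to 1.93 times.

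Gm5416 was read almost only in cells that also held Gm5483, in 25 of 26 and 38 of 42 mIDH1 cells. The genes at the minus strand end of the cluster overlapped most relative to their low shares. Stfa2 and Stfa3 were read together in 2 and 6 mIDH1 cells, or 12.9 and 17.9 times the product of shares, and Stfa2 and BC100530 in 4 and 8 cells, or 8.59 and 11.6 times. Stfa1 and BC100530, the most alike in sequence, were read together in 4 and 3 cells, or 5.29 and 3.49 times. Such small counts give the ratios wide margins. At 1000 UMIs, 6.68% and 5.43% of mIDH1 neutrophils and 1.98% and 0% of wtIDH1 neutrophils held 3 or more of the 7 genes, and 47.0% and 44.8% against 71.3% and 72.1% held none.

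**Figure D4:**
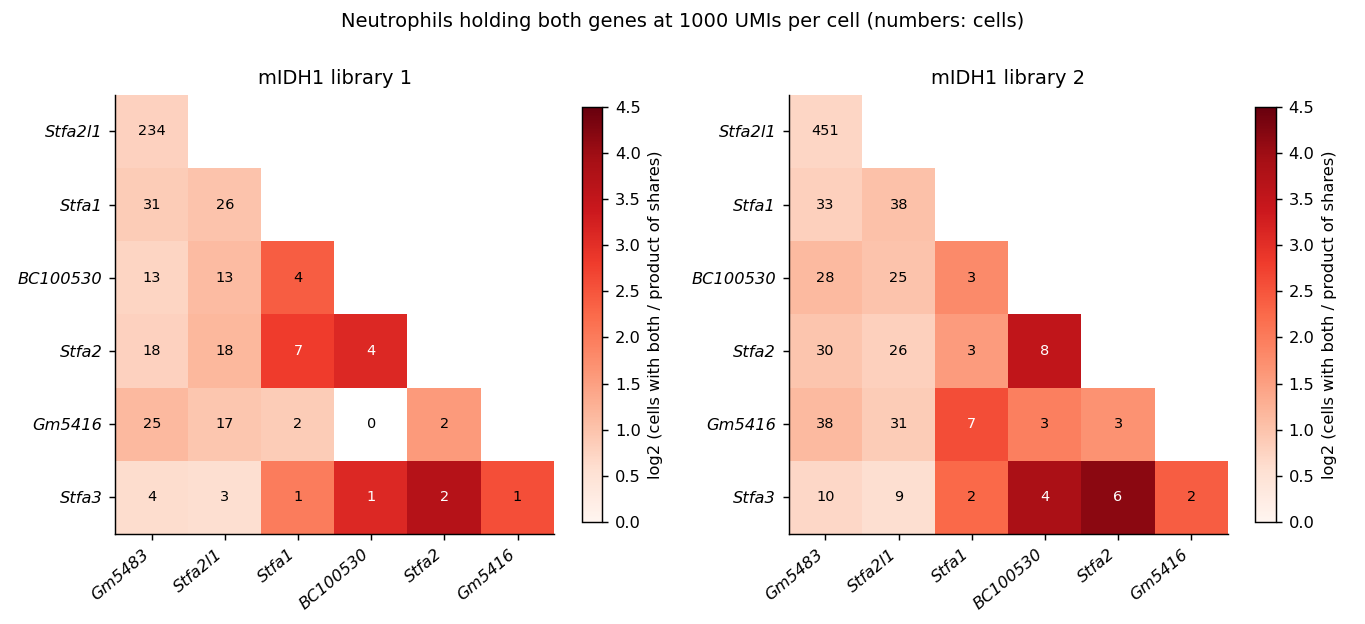
Neutrophils of the mIDH1 libraries that hold both of 2 genes at 1000 UMIs per cell (numbers: cells), coloured by the log2 ratio to the product of the single shares. Gm5483 with Stfa2l1 has the most cells, 234 and 451, and Stfa2 with Stfa3 the highest ratio, on 2 and 6 cells.

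In macrophages, monocytes, microglia, T cells, NK cells and dendritic cells the 7 genes were far lower than in neutrophils. In neutrophils they summed to 4377 and 5106 CPM in mIDH1 and 1260 and 1882 CPM in wtIDH1, with means of 4741 ± 515 and 1571 ± 440 CPM (SD, n = 2 each). In macrophages they summed to 102 and 91.5 CPM in mIDH1 and 25.4 and 21.2 CPM in wtIDH1, and in monocytes to 127 and 51.7 CPM in mIDH1 and 8.03 and 6.71 CPM in wtIDH1. T cells, which should lack these genes, had 9.17 and 17.3 CPM in mIDH1 and 0.746 and 1.71 CPM in wtIDH1, and NK cells 18.7 and 18.3 CPM in mIDH1 and no UMI in wtIDH1. Dendritic cells held none in any library, on 63 and 24 mIDH1 cells and 69 and 94 wtIDH1 cells. Microglia had means of 185 ± 84.9 CPM in mIDH1 and 49.1 ± 61.4 CPM in wtIDH1, above the macrophage and monocyte means. In wtIDH1 that order came from replicate 1 alone, and replicate 2 microglia lay below the macrophages and monocytes of that library. The microglia values rest on 58 and 16 mIDH1 cells and 73 and 115 wtIDH1 cells. Ungated cells had means of 148 ± 51.8 CPM in mIDH1 and 17.1 ± 5.29 CPM in wtIDH1. The macrophage and monocyte levels lay above those of T cells of the same library.

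Depth differed between these classes, so shares were read at 1000 UMIs. Gm5483 was read in 3.42% and 4.04% of mIDH1 macrophages and 0.816% and 0.782% of wtIDH1 macrophages, and in 0.378% and 1.65% of mIDH1 T cells and in no wtIDH1 T cell. In monocytes it was read in 3.75% and 1.39% of mIDH1 and 0.361% and 0.630% of wtIDH1 cells. In mIDH1 replicate 2 that share lies below the share of T cells, while the summed level of the 7 genes is higher in monocytes, so no order is read from it. Median depths before thinning were 5114 and 4654 UMIs in mIDH1 and 4289 and 6782 UMIs in wtIDH1 macrophages, and 5714 and 5309 UMIs in mIDH1 and 4178 and 4129 UMIs in wtIDH1 T cells. Most macrophage Gm5483 UMIs sat in few cells. The 15 and 6 mIDH1 macrophages and 3 and 4 wtIDH1 macrophages with 10 or more Gm5483 UMIs held 75.7% and 75.3% of the UMIs in mIDH1, and 80% and 81.8% in wtIDH1. Those cells had a median neutrophil score of 0.184 and 0.185 in mIDH1 and 0.234 and 0.208 in wtIDH1, against class medians of 0.05 and 0.0576 in mIDH1 and 0.0330 and 0.0350 in wtIDH1. The 12 neutrophil gate markers summed to 1880 and 3238 CPM in mIDH1 macrophages and 997 and 873 CPM in wtIDH1 macrophages, with Ly6g at 0 in both wtIDH1 libraries. How far neutrophil RNA or doublets account for stefin A UMIs in macrophages and monocytes was not tested.

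Neutrophils held 50.9% and 66.0% of the UMIs of the 7 genes in wtIDH1, against 81.3% and 93.8% in mIDH1. They were also fewer, at 3.47% and 5.84% of kept cells in wtIDH1 against 27.2% and 49.7% in mIDH1. In wtIDH1 replicate 1 Stfa1 had 21 UMIs. Of these 1 lay in neutrophils, 9 in monocytes, 7 in microglia and 4 in macrophages, each from 1 cell. Of 21 Stfa2 UMIs, 8 (38.1%) lay in neutrophils and the other 13 in 1 monocyte. Stfa2l1 had 49.1% of its 173 UMIs and Gm5483 55.3% of its 340 UMIs in neutrophils, and the 1 Gm5416 UMI lay in a macrophage. In mIDH1, 87.7% and 95.6% of the 652 and 405 Stfa1 UMIs lay in neutrophils, and in wtIDH1 replicate 2 the 1 Stfa1 UMI did. The 5 cells of the erythroid gate in mIDH1 replicate 1 had 80 UMIs of the 7 genes, or 6817 CPM, which is above that library's neutrophils, while the 12 such cells of mIDH1 replicate 2 had 1 UMI and the 1 and 8 cells of wtIDH1 had none.

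**Figure D5:**
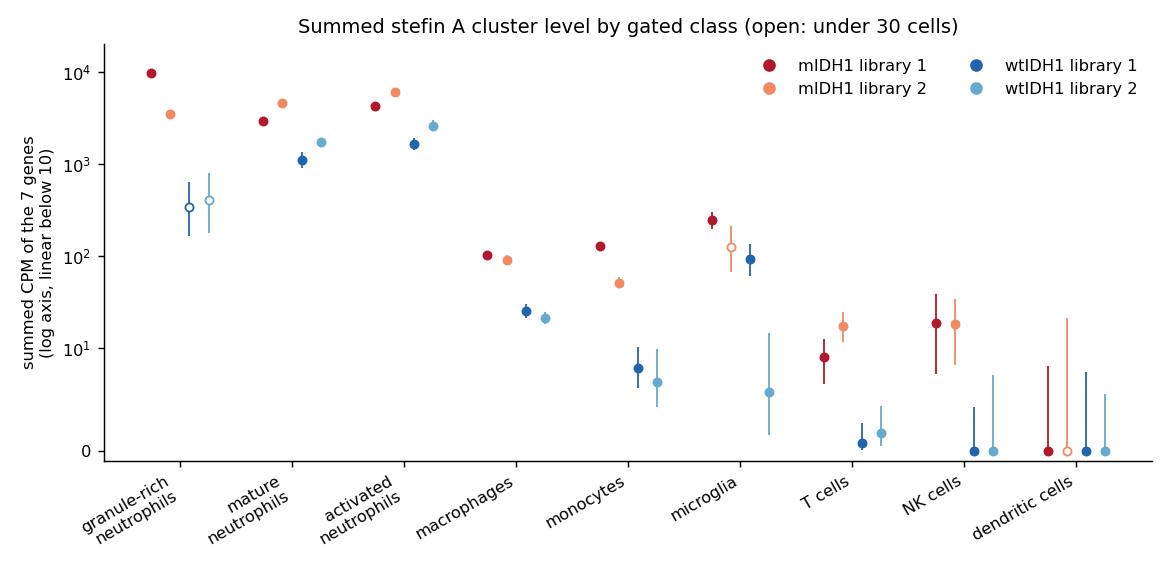
Summed level of the 7 genes (CPM, log axis that is linear below 10) in neutrophil states and other gated classes, 1 point per library with exact Poisson 95% intervals, open where the class has under 30 cells. Macrophages at 102 and 91.5 CPM in mIDH1 and 25.4 and 21.2 CPM in wtIDH1 lie far under neutrophils, and dendritic cells at 0.

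Over 27 sums of class and library with 30 or more cells, the genes whose log2 level followed the summed stefin A level most closely were S100a9 (Pearson r = 0.98) and S100a8 (0.97), the calgranulins, followed by Il1f9 (0.935), Lrg1 (0.922) and G0s2 (0.921). S100a8, S100a9 and G0s2 are also gate markers. Over the 12 sums of the neutrophil states alone they were Saa3 (0.934), an acute phase protein, 2010005H15Rik (0.922), Ubb (0.905), Sra1 (0.905) and Clec4d (0.895), a gate marker too. These sums had no minimum of cells and include the granule-rich wtIDH1 sums of 12 and 7 cells. The sums share libraries and depth, and the values describe likeness of pattern only. The second of these genes, 2010005H15Rik, lies inside the cluster between Gm5416 and Stfa1.

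Among 8 other stefin and cystatin genes 4 could be tested in all neutrophils, and edgeR called none in either direction. At an unadjusted p under 0.05 there were 2, and DESeq2 called 1, 2010005H15Rik. The median log2 fold change was 0.47. The nearest was 2010005H15Rik at 193 and 155 CPM in mIDH1 and 48.5 and 109 CPM in wtIDH1 (log2 fold change 1.55, SE 0.36, adjusted p = 0.0528). Cstb, stefin B, which is made in most cells, was at 1308 and 1014 CPM in mIDH1 and 895 and 752 CPM in wtIDH1 (0.93, SE 0.33, adjusted p = 0.156). Cst3, the secreted cystatin C, was at 599 and 569 CPM in mIDH1 and 1097 and 653 CPM in wtIDH1 (−0.12, SE 0.35, adjusted p = 0.891), and Cst7, cystatin F, had an adjusted p = 0.998. Csta1, next to the cluster on chromosome 16, had no UMI in neutrophils, and BC117090, inside it, had 1 UMI in each mIDH1 library.

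Of 10 papain-like cysteine proteases, the class of enzymes that stefins block, 7 could be tested and edgeR called none, with a median log2 fold change of −0.12. At an unadjusted p under 0.05 there were 2, and DESeq2 called 0. Ctsc, cathepsin C, which activates the serine proteases of neutrophil granules, was at 99.9 and 61.3 CPM in mIDH1 and 216 and 229 CPM in wtIDH1 (−1.06, SE 0.29, adjusted p = 0.0771). Ctsz was at 828 and 563 CPM in mIDH1 and 564 and 540.05 CPM in wtIDH1 (0.75, SE 0.31, adjusted p = 0.218). Ctsh (−0.27, adjusted p = 0.679) and Ctss (−0.16, adjusted p = 0.839) were closer to no change. In mature and activated neutrophils neither edgeR nor DESeq2 called a gene of either list, with 0 and 2 stefin and cystatin genes and 1 and 0 proteases at an unadjusted p under 0.05.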

How the data were processed

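Single-cell RNA was read by 10x Genomics droplet sequencing in 2 mIDH1 and 2 wtIDH1 libraries, which the labels place in the same run. The deposited values are raw UMI counts per gene and barcode, made by the authors with Cell Ranger 3.1 and STAR on mm10, per the labels' protocols. The labels also name a step that equalises depth, but the separate matrices used here differ in total. No length scaling was applied to these counts.

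Cells with 200 or more genes and at most 10% mitochondrial UMIs were kept. Scrublet's automatic limit marked under 0.5% of cells, so the highest scores were removed at 0.8% per 1000 cells (75 to 114 cells per library). Each cell was given to the class whose markers had the highest mean scaled level, at 0.2 or more and 0.05 above the next. Neutrophils with a granule score of 0.2 or more were called granule-rich, and the rest mature or activated by the higher score. The scoring rule and its limits were set after the data were seen, and 303 cells led by the neutrophil score were left out.

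The 7 genes, the marker lists and the gene lists were chosen with earlier results of these data known. Beside the 7 genes, the text names up to 4 tested genes of lowest p in each of the 2 lists, and the 5 genes with the highest correlation with the summed stefin A level over classes and over neutrophil states (mean of at least 20 CPM).

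Summed UMIs of each class and library were fitted with edgeR 4.0.16 (R 4.3.3, TMM, filterByExpr, threshold 0.05), after a check on simulated data. DESeq2 1.42.0 was an alternative. A class was fitted with 30 or more cells in every library, which leaves granule-rich neutrophils unfitted. Levels and shares carry exact Poisson and binomial 95% intervals, which cover counting error only, and shares were thinned to 1000 UMIs per cell. Other steps used Python 3.11.15, scanpy 1.11.5 and Biopython 1.88. Promoter windows came from RefSeq (GRCm38.p6), and protein sequences were not used here.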

Additional observations from a re-analysis of the deposited data

How the results depend on the processing

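The direction of all 7 genes was the same in each alternative fit in all neutrophils that tested them, but the calls were not. Of the 6 genes called, 6 passed with DESeq2 size factors, with library totals alone, with no filter on low counts (where Stfa3 passed too, adjusted p = 0.00987), with doublets kept, with clusters and without mIDH1 replicate 2. DESeq2 gave no adjusted p for Gm5416 and called the other 5, and 5 of 5 with a value passed without mIDH1 replicate 1. At most 5% mitochondrial UMIs left out Gm5483 (adjusted p = 0.0761), and a stricter gate with a margin of 0.2 left out Stfa2 (adjusted p = 0.106). The replicate numbers did not pair the libraries (r = −0.0152 over 7194 genes), and a fit with the replicate block called 80 genes and left Gm5483 at adjusted p = 0.0562. In activated neutrophils the block put Stfa2l1 and Gm5483 at adjusted p = 0.0412 each.

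The number of genes called moved more. In all neutrophils (79) it was 299 with library totals alone, 407 with no filter, 174 with DESeq2, 45 at 5% mitochondrial UMIs, 48 with clusters, 32 without the neutrophil of most stefin A UMIs in each library, and 14 to 667 with 1 library left out. In mature neutrophils (5) it was 18 with DESeq2 size factors, 83 with library totals, 150 with no filter, 57 with DESeq2, 63 with the replicate block, 117 with the stricter gate, 87 with clusters, 63 without those cells, and 4 to 362 with 1 library left out. In activated neutrophils (33) it was 96 with library totals, 171 with no filter, 21 with the replicate block, 5 with doublets kept, 1 with clusters, and 11 to 135 with 1 library left out. The cause was not tested. The 5% limit could not be fitted in mature and activated cells, where a library fell under 30 cells.

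The mean share of neutrophils with any of the 7 genes at 1000 UMIs was 54.1% in mIDH1 and 28.3% in wtIDH1. It was 56.3% and 29.6% with the stricter gate, 52.2% and 26.9% with clusters, and 46.4% and 25.6% at 500 UMIs. In wtIDH1 it was 23.1% at 5% mitochondrial UMIs, 27.7% without those cells and 22.1% with states weighted equally. The mean summed level moved by less than 1 SD under each alternative. Of 182 alternative values of single-gene means 142 did so. Depth limits wtIDH1 most, where 5 of the 7 genes had 0 to 8 UMIs per library.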
